A study of Mus musculus with 6 samples.

Results

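The genes followed here mark positions along the embryonic gut tube, and number 10 of the 55414 in the count table. They were measured in cells of the *Pdx1-Cre* lineage with and without *mir-302*. The list holds *Sox2*, *Nkx2-1* and *Krt15* on the foregut and squamous side, *Klf5*, *Cdx1* and *Cdx2* of the gut epithelium and hindgut, and *Sox17*, *Hhex*, *Prox1* and *Tbx3* of the ventral foregut, liver and pancreas. Members were chosen by name, through the Ensembl identifiers of the table, and all 10 were found. Embryos were collected at E10.5, the embryonic day, in the mouse, and cells labelled by *Pdx1-Cre* and tdTomato were sorted from the trunk. The 3 wild-type (WT) and the 3 knockout (KO) libraries all came from embryos carrying *Pdx1-Cre* and the *Rosa26* LSL-tdTomato reporter, from crosses of *mir-302* heterozygotes. The KO embryos lacked *mir-302* in every cell, since the deletion did not depend on Cre, while Cre only marked the cells to be sorted. *Pdx1-Cre* labels the cells in which the *Pdx1* promoter is or was active, which include duodenum and stomach beside the pancreas, and the number of embryos behind each library was not stated. P-values therefore measure only the spread between these libraries.

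The gut tube is divided along its length by transcription factors that restrict one another's domains. Sox2 marks the anterior part that gives rise to esophagus, lung and stomach, Cdx1 and Cdx2 mark the intestine, and the Pdx1 domain lies between them. On the ventral side, Hhex and Sox17 act where liver, gall bladder and ventral pancreas separate, Sox17 in the bile duct primordium and Hhex in the liver and ventral pancreatic buds. Prox1 and Tbx3 take part in the growth of the liver bud, and Prox1 also in the pancreas. Klf5 is a zinc finger factor of the gut epithelium, Nkx2-1 specifies lung and thyroid, and Krt15 is a keratin of basal, stratified epithelium.

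The miR-302 microRNAs of the deleted cluster share one seed, the bases that pair with target transcripts. The mature sequences found in RefSeq (GRCm38.p6) are shown because they define the sites searched in the 10 genes, with bases 2 to 8 in capitals:
miR-302b-3p, chr3:127545275-127545297, plus strand: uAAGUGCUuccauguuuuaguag
miR-302c-3p, chr3:127545406-127545427, plus strand: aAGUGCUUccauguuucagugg
miR-302d-3p, chr3:127545665-127545687, plus strand: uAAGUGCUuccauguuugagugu
The annotated miR-302c-3p starts 1 base later, so the 7 bases in capitals in the others are its bases 1 to 7, and its own capitals are shifted by 1 base. miR-302a-3p was not analysed here, and the seed of miR-367, another microRNA of the cluster, was not searched. In the longest GENCODE M21 3′UTR of each gene, *Hhex* was the only one of the 10 with a seed match of at least 7 bases, and it had 2. Such a match was present in 17.7% of the 21045 protein-coding genes with an annotated 3′UTR. The *Hhex* matches lie at bases 418 to 424 and 527 to 533 of its 926-base 3′UTR, and are given with 10 bases on either side and the match in capitals:
first match, 7mer-A1: ctttagaggtGCACTTAggtgggggca
second match, 7mer-m8: gccatttcagAGCACTTggctcccggt
The other 9 genes had 0 matches in this search, *Sox2*, *Klf5* and *Krt15* among them. The authors, using TargetScan, named *Sox2* as an example of the predicted *mir-302* targets that were higher in KO. Their prediction differs in method from the search here and was not repeated.

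The libraries held 17352498 to 26634523 counts, and replicates of a genotype varied beyond counting error (chi-square per degree of freedom, 28.0 to 45.6). The clustered microRNA genes were too low to check the genotypes, with 0 counts everywhere except 2 counts for *Mir302d* in KO replicate 3. The labelled cell type was present by its markers, with *Pdx1* at 73.1 to 107.5 CPM, *Epcam* at 356.1 to 581.2 CPM and *Cdh1* at 440.9 to 724.1 CPM (CPM, counts scaled to library size with TMM factors). Markers of other cells differed between libraries. The globin *Hba-a1* reached 3549 CPM in the third WT library and 1580 CPM in the first KO library, and KO replicate 2 lacked *Col1a1*, at 0 counts where the others had 34.7 to 277.5 CPM. The latter library matters for *Sox17* and *Tbx3* below.

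For *Sox2*, *Klf5* and *Krt15*, the lowest KO library exceeded the highest WT library, and the other 5 tested genes overlapped between genotypes. The filter on low counts in edgeR let 8 of the 10 genes through to the test, 4 with a fold change above 0 and 4 below. In edgeR's quasi-likelihood test, with p-values adjusted by Benjamini-Hochberg over all genes, 0 of the 8 and 0 of all 16353 genes (0%) passed an adjusted p of 0.05, with a smallest adjusted p of 0.0846 over all genes. At an unadjusted p under 0.05, 3 of the 8 were higher in KO against 6.42% of all tested genes, and 0 were lower against 3.97%. DESeq2, the tool named by the authors, called the same 3 higher out of 8 against 4.22% of its 14353 genes, and 0 lower against 0.648%. The KO libraries lay above all WT libraries for these 3, as for 8.36% of all tested genes, and below them for 0, against 7.99%. The median log2 fold change of the 8 was 0.08, beside -0.02 over all tested genes. These values describe a short list chosen with its results known, and with 3 libraries against 3 an exact permutation test cannot give a p under 0.1. In bulk samples, fewer cells of a type and less RNA per cell cannot be told apart.

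**Figure D1:**
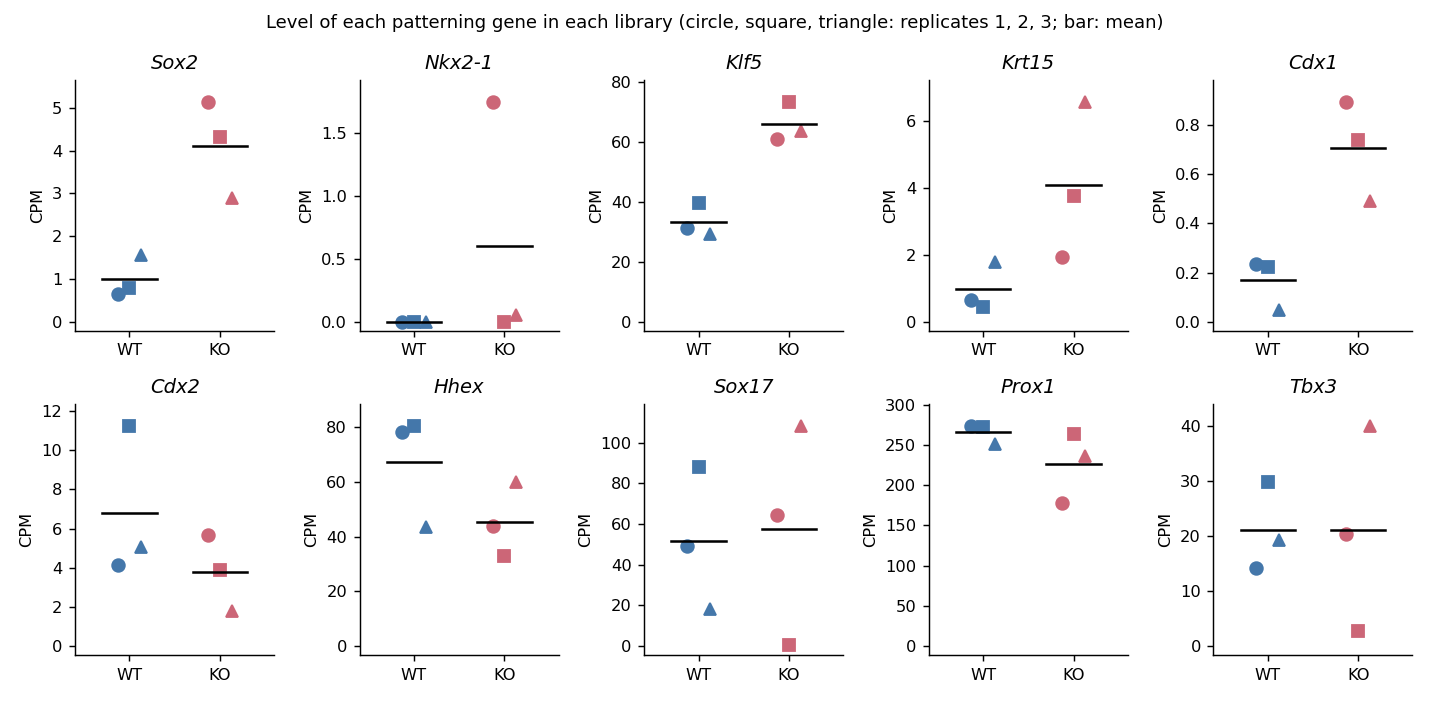
CPM of each gene (y axis, a scale of its own per gene) in the WT and KO libraries (x axis), with a circle, square or triangle for replicates 1, 2 and 3 and a bar at the mean. *Sox2*, *Klf5*, *Krt15* and *Cdx1* lie higher in every KO library than in any WT library, *Nkx2-1* is seen mainly in KO replicate 1, and KO replicate 2 is lowest for *Sox17* and *Tbx3*.

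*Sox2* (ENSMUSG00000074637.8), the anterior endoderm factor, was at 0.660, 0.782 and 1.55 CPM in WT replicates 1, 2 and 3 and at 5.14, 4.33 and 2.88 CPM in the KO replicates, from 14, 14 and 32 counts and 138, 76 and 53 counts. The lowest KO library was above the highest WT library. The WT mean was 0.999 ± 0.485 CPM and the KO mean 4.12 ± 1.14 CPM (SD, n = 3 libraries per genotype). KO over WT, this gave a log2 fold change of 2.04 (standard error 0.42, 95% interval 1.05 to 3.02, unadjusted p = 0.00168, adjusted p = 0.137, edgeR). DESeq2 gave an adjusted p of 0.00128. Over the 6 fits that each dropped 1 library, the log2 fold change ran from 1.81 to 2.54. *Sox2* also marks neural progenitors. Of their defining genes, *Sox1* had 0 counts in every library and *Sox3* was at most 0.146 CPM. *Pax6*, which is active in pancreas too, was at 28.0 to 74.1 CPM. Of the 16 neural genes listed, 3 had 0 counts in every library and 7 passed the filter. Among the latter, *Map2* was at 24.3 to 53.7 CPM, *Tubb3* at 12.1 to 35.1 CPM and *Nes* at 3.02 to 8.16 CPM. The part of neural cells in the *Sox2* values was not tested.

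*Nkx2-1* (ENSMUSG00000001496.16), the lung and thyroid factor, had 0 counts in the 3 WT libraries, 47 counts in KO replicate 1, 0 in KO replicate 2 and 1 in KO replicate 3. A count of 0 allows up to 3 counts, or 0.141 to 0.168 CPM in the WT libraries, counting error only. The gene was not tested, and its signal rests on KO replicate 1, where it was at 1.75 CPM. In that library, *Barx1* of the stomach mesenchyme was also highest, at 2.20 CPM against 0.243 CPM or less elsewhere. *Foxf1* of the mesenchyme list was at 35.3 CPM there and at most 1.84 CPM elsewhere. The summed mesenchyme level was highest there too, at 1408 CPM against 56.0 to 1215 CPM, but *Col1a1* and *Pdgfra* were not. The part of such cells in the *Nkx2-1* value was not tested. The thyroid factor *Foxe1* had 0 counts in all 6 libraries, and *Pax8* was at most 0.816 CPM.

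*Krt15* (ENSMUSG00000054146.9), the basal keratin, was at 0.660, 0.447 and 1.80 CPM in the WT replicates and at 1.94, 3.76 and 6.58 CPM in the KO replicates. The genotypes did not overlap, but KO replicate 1 was only just above WT replicate 3. The WT mean was 0.968 ± 0.726 CPM and the KO mean 4.09 ± 2.34 CPM (SD, n = 3 libraries per genotype), which gave a log2 fold change of 2.06 (standard error 0.64, unadjusted p = 0.0139, adjusted p = 0.274, edgeR). DESeq2 called it, with an adjusted p of 0.0276. The other squamous genes stayed low or varied, with *Krt5* at most 0.653 CPM and *Trp63* at 19.8 CPM in KO replicate 3, where *Krt15* was highest, and at 3.13 to 6.89 CPM elsewhere. Over all 16 squamous and ectoderm genes, the summed level was 136.1 to 162.7 CPM in WT and 143.1 to 193.5 CPM in KO. Their part in the *Krt15* values was not tested.

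*Klf5* (ENSMUSG00000005148.9), the gut epithelium factor, had the smallest p of the 8. It was at 31.5, 39.7 and 29.2 CPM in the WT replicates and 61.2, 73.6 and 63.6 CPM in the KO replicates. Every KO library exceeded every WT library, by more than the spread within either group. The WT mean was 33.5 ± 5.54 CPM and the KO mean 66.1 ± 6.53 CPM (SD, n = 3 libraries per genotype), which gave a log2 fold change of 0.98 (standard error 0.15, 95% interval 0.63 to 1.33, unadjusted p = 0.000257, adjusted p = 0.132, edgeR), rank 20 among the 16353 genes by p. DESeq2 gave an adjusted p of 4.9e-07. By edgeR it passed in 2 alternatives, without WT replicate 2 (adjusted p = 0.0319) and without a filter on low counts (adjusted p = 0.0213).

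In one of its annotated protein-coding transcripts *Klf5* also holds 200 adjoining bases with 79% GC, above the value of 88.7% of genes, and genes of this kind were frequent among those higher in KO. Of the genes that DESeq2 called higher, 90.5% held 200 adjoining bases of 75% GC or more, as did 26.7% of all genes it tested. With offsets that take out a smooth trend on this GC share, its log2 fold change was 0.78 in edgeR (adjusted p = 0.166) and DESeq2 still called it (adjusted p = 5.6e-05). The same offsets left *Sox2* at 2.08 and *Krt15* at 2.11 in edgeR, whose richest stretches held 71.5% and 62% GC.

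**Figure D2:**
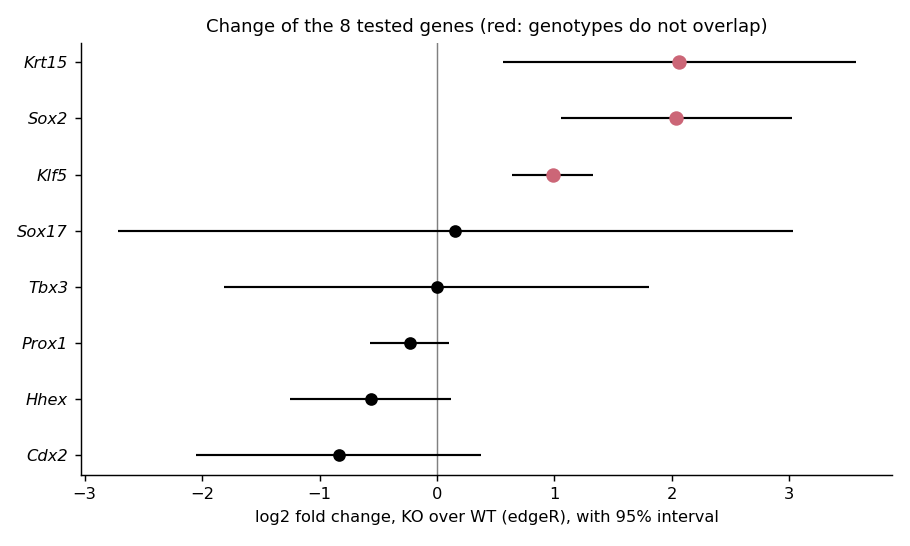
Log2 fold change of KO over WT (x axis) for the 8 tested genes (y axis), as dots with the 95% interval of edgeR's quasi-likelihood fit, red where the genotypes do not overlap. The intervals of *Krt15*, *Sox2* and *Klf5* lie above 0, that of *Sox17* runs from -2.72 to 3.03, and those of *Prox1*, *Hhex* and *Cdx2* reach from below 0 to just above it.

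Of the hindgut factors, *Cdx2* had the lower and *Cdx1* the higher mean in KO, and neither was called. *Cdx2* (ENSMUSG00000029646.4), the master regulator of intestine, was at 4.15, 11.2 and 5.05 CPM in the WT replicates and 5.67, 3.87 and 1.80 CPM in the KO replicates. KO replicate 1 was above WT replicates 1 and 3, so the genotypes overlapped, and WT replicate 2 was the highest. The log2 fold change was -0.84 (standard error 0.52, 95% interval -2.05 to 0.37, adjusted p = 0.669, edgeR), an interval that includes 0.

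*Cdx1* (ENSMUSG00000024619.9), its relative, was close to the limit of the libraries, with 5, 4 and 1 counts in WT and 24, 13 and 9 counts in KO. All KO libraries were above all WT libraries, but edgeR's filter left the gene untested. Summed over libraries, the rate was 4.38 times that of WT (46 against 10 counts, 95% interval 2.18 to 9.73, counting error only). That interval leaves out the spread between libraries, so it compares these libraries and not the genotypes. Its richest 200 bases held 80% GC. *Cdx4* was at most 1.12 CPM, and *Evx1* at most 0.335 CPM.

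The ratio of *Sox2* to *Cdx2* within a library does not depend on library scaling. Per kilobase of exon, *Sox2* was at 0.175, 0.0766 and 0.338 times *Cdx2* in WT replicates 1, 2 and 3 and at 0.998, 1.23 and 1.77 times *Cdx2* in the KO replicates. *Cdx2* was thus the higher of the pair in every WT library, and the KO libraries lay from about parity upward. *Cdx1*, the other hindgut factor, rose in KO about as much as *Sox2*, at low counts (ratio of mean CPM, 4.186 and 4.125). The ratio of *Sox2* to *Cdx1* was not computed, so the shift is given for *Cdx2* only. The mean log2 ratio was -2.60 ± 1.07 in WT and 0.37 ± 0.42 in KO (SD, n = 3 each), a difference of 2.97 (p = 0.1 by a two-sided exact permutation test, which for 3 against 3 is the smallest possible). The pair was set side by side after both had been seen, and *Sox2* alone already separated the genotypes. The p-value of the permutation test is therefore a description and no support for a change in the ratio.

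The promoters of this pair (250 bases before to 50 after the start, RefSeq, GRCm38.p6) are shown because the 2 genes define the anterior and posterior ends. Promoters of 5 of the 10 genes were found. Capitals mark CDX letters (TTTATG or TTTATT), SOX letters (ACAATG or ACAAAG) and an octamer (ATGCAAA), all searched on both strands:
Sox2, chr3:34649745-34650044, plus strand: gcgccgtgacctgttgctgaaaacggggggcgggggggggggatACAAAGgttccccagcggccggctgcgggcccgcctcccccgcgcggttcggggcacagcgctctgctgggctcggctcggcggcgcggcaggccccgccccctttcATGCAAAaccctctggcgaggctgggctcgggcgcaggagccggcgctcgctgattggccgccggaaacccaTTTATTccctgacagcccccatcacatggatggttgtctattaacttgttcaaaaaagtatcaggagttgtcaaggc
Cdx2, chr5:147307200-147307499, minus strand: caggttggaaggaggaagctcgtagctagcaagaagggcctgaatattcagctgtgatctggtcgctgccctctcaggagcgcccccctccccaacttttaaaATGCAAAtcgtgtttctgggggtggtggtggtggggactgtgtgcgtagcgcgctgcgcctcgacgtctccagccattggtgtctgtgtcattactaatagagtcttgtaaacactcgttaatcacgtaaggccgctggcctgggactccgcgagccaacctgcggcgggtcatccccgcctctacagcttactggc
The *Sox2* promoter held CDX, SOX and octamer letters, at -27 to -22, -206 to -201 and -99 to -93 from the start, and none overlapped. The *Cdx2* promoter held an octamer at -147 to -141 and neither of the other motifs. Of all 32851 promoters of this length, 27.6% held the CDX letters, 28.6% the SOX letters and 4.63% the octamer. The *Sox2* promoter had 66.3% GC and 27 CpG, against medians of 52.7% and 7 over all promoters. A match of letters is no evidence of binding.

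Of the ventral foregut and liver bud genes, *Sox17* and *Tbx3* varied far more between libraries than between genotypes. *Sox17* (ENSMUSG00000025902.14), the bile duct and endothelial factor, was at 49.2, 88.3 and 18.1 CPM in WT and at 64.4, 0.342 and 108.1 CPM in KO. KO replicate 2 had 6 counts where the others had 372 to 1987, and the lowest level among the others was 52.8 times higher. The log2 fold change was 0.16 (standard error 1.22, 95% interval -2.72 to 3.03, adjusted p = 0.984, edgeR). It was 0.75 without KO replicate 2 and 0.79 without WT replicate 2, and fell below 0 without WT replicate 3 (-0.22) or KO replicate 3 (-0.63).

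*Tbx3* (ENSMUSG00000018604.19), a T-box factor of liver bud growth, was at 14.2, 29.9 and 19.3 CPM in WT and at 20.5, 2.68 and 40.1 CPM in KO. KO replicate 2 was again the lowest and KO replicate 3 the highest. In edgeR its log2 fold change was -0.0029 with a standard error of 0.77 (adjusted p = 0.9995), and it was 0.53 without KO replicate 2. The 6 libraries had the same order for *Sox17* and for the hepatoblast gene *Afp*, with KO replicate 2 lowest and KO replicate 3 highest. For *Alb*, the other defining liver gene, the lowest and highest libraries were the same, but the order between them differed.

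KO replicate 2 was the lowest of the 6 libraries for 13 of the 18 mesenchyme genes, 6 of the 13 liver genes and 6 of the 22 endothelial genes. It was the highest for 7 of the 16 epithelial and 12 of the 20 pancreatic progenitor genes. The share of all genes for which KO replicate 2 was lowest or highest was not counted, so these counts have no background beside them. *Afp* was at 101.9 CPM there and 335.8 to 1347 CPM elsewhere, *Alb* at 2.62 and 16.3 to 50.4 CPM, and *Pdgfra* at 0.912 and 9.22 to 71.6 CPM. The liver genes were not uniform, since *Ttr* (323.3 against 119.8 to 267.6 CPM) and *Serpina1b* (197.6 against 104.0 to 194.3 CPM) were highest there. *Epcam* and *Pdx1* were also highest there, at 581.2 and 107.5 CPM. *Sox17* also marks endothelium. Of its defining genes, *Pecam1* was at most 2.35 CPM, *Cdh5* at most 0.708 CPM, and *Kdr* at most 1.23 CPM outside KO replicate 1 (11.3 CPM). Some other endothelial genes were low together with *Sox17* in KO replicate 2, where 5 of the 22 had 0 counts while every other library had some. Among these, *Flt1* was at 9.81 to 24.5 CPM and *Tek* at 1.85 to 9.73 CPM elsewhere. The list was not uniform. *Ramp2* (32.5 against 19.9 to 34.4 CPM) and *Egfl7* (10.9 against 8.93 to 13.8 CPM) were within the range of the other libraries, and 1 of the 22 was highest in KO replicate 2. The summed endothelial level was 63.4 to 75.6 CPM in WT and 49.6 (KO replicate 2) to 113.7 CPM in KO. Over the 13 liver genes listed, the summed level ran from 1888 to 3917 CPM in WT and 1804 to 3780 CPM in KO, and that of the 18 mesenchyme genes from 203.3 to 1215 CPM in WT and 56.0 to 1408 CPM in KO. The part of these cells in the *Sox17* and *Tbx3* values was not tested.

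**Figure D3:**
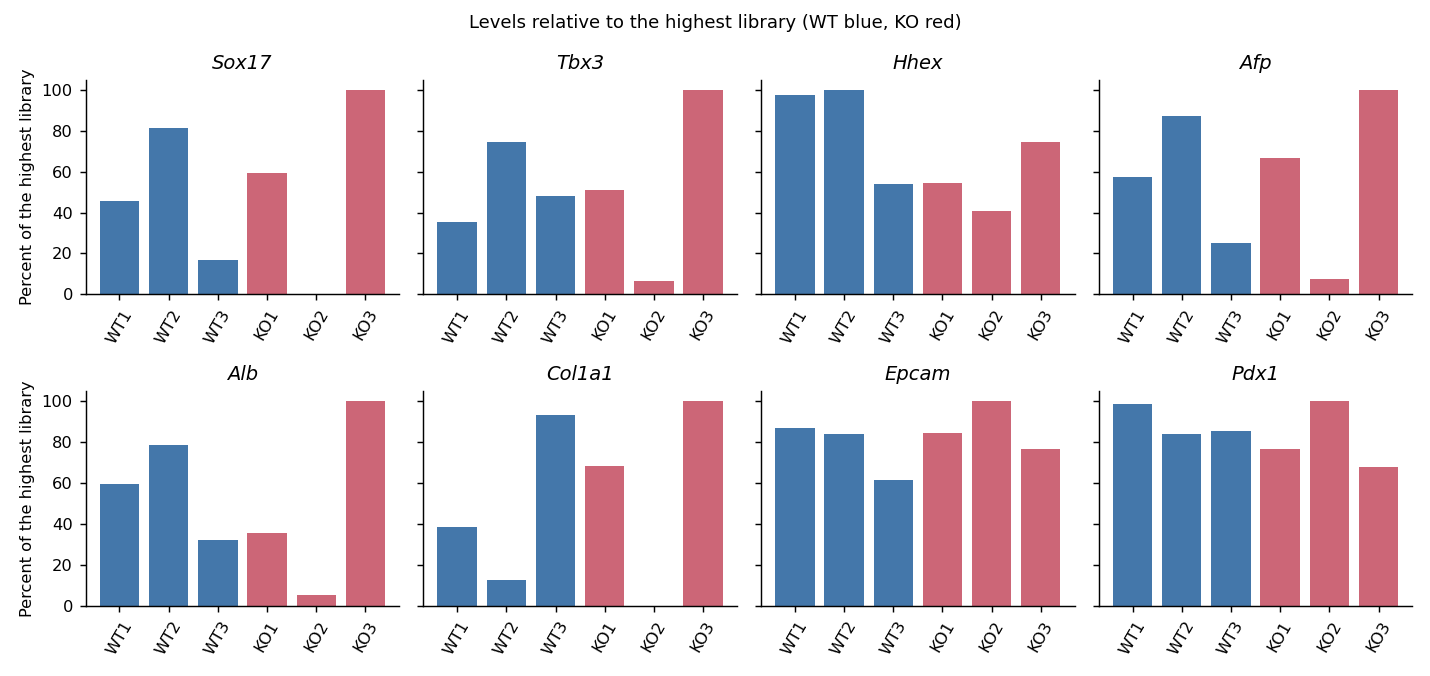
Level of 3 ventral foregut genes and 5 markers in each library (bars, WT blue and KO red; y axis, percent of the highest library). KO replicate 2 is at 0.316% for *Sox17*, 6.69% for *Tbx3* and 7.57% for *Afp*, and is at 100% for *Epcam* and *Pdx1*.

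*Hhex* (ENSMUSG00000024986.13), the homeobox factor of the liver and ventral pancreatic buds and the only gene of the 10 with seed matches, was at 78.4, 80.4 and 43.5 CPM in WT and at 43.8, 32.8 and 60.02 CPM in KO. WT replicates 1 and 2 were highest, but WT replicate 3 was below 2 KO libraries. The log2 fold change was -0.57 (standard error 0.29, 95% interval -1.25 to 0.12, adjusted p = 0.584, edgeR). *Prox1* (ENSMUSG00000010175.14), a homeodomain factor of liver and pancreas with the smallest standard error of the 8, was at 273.3, 271.8 and 251.5 CPM in WT and 177.9, 264.0 and 236.5 CPM in KO. KO replicate 1 was the lowest and KO replicate 2 was within the WT range. In edgeR its log2 fold change was -0.23 with a standard error of 0.14 (95% interval -0.57 to 0.10, adjusted p = 0.668).

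To compare levels between genes, CPM was divided by the exon length of each gene. In WT, *Hhex* and *Prox1* were highest, at 35.2 and 31.6 CPM per kilobase, and did not differ beyond their spread. *Sox17* (12.7), *Klf5* (6.43), *Tbx3* (4.06) and *Cdx2* (3.01) followed, each overlapping its neighbour within the group. *Prox1* was above *Sox17* in all WT libraries, and *Cdx2* above *Krt15* (0.569). *Krt15* and *Sox2* (0.485) overlapped, *Cdx1* was below both at 0.0967, and *Nkx2-1* was not detected. In KO, *Prox1* (26.95) and *Hhex* (23.7) still led, and *Krt15* (2.41) and *Sox2* (2.002) stood beside *Cdx2* (1.67) with overlapping ranges.

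**Figure D4:**
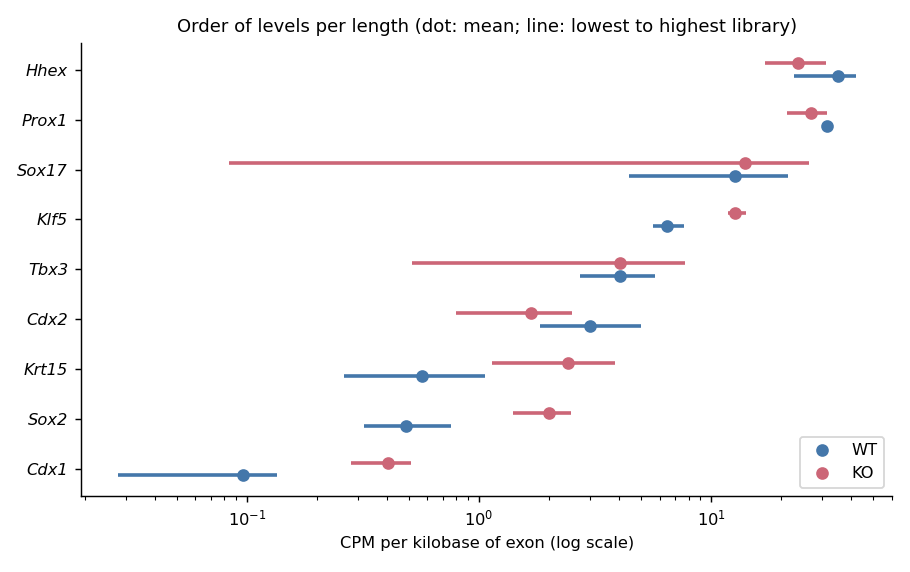
CPM per kilobase of exon (x axis, log scale) for 9 of the 10 genes in WT (blue) and KO (red), with the mean as a dot and the lowest to highest library as a line; *Nkx2-1*, at 0 in WT, is left out. *Sox2* and *Krt15* are at 0.485 and 0.569 in WT and at 2.002 and 2.41 in KO, and *Hhex* and *Prox1* lead in both genotypes.

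Other genes of the gut tube were read from 5 lists, which overlap and share members. Of 16 tested foregut organ factors, 14 had a fold change above 0, 7 were higher at an unadjusted p under 0.05 and 0 lower, with a median of 0.67. No gene of any list passed edgeR's adjusted test. The leading foregut gene was *Sox4*, an HMG-box factor of progenitors, with a WT mean of 32.1 ± 10.9 CPM and a KO mean of 124.5 ± 43.8 CPM (SD, n = 3 each; adjusted p = 0.132, edgeR; DESeq2 adjusted p = 1.55e-08). The endoderm factor *Gata6* averaged 13.6 ± 4.45 and 34.3 ± 7.35 CPM. The count of 7 fell to 4 without WT replicate 1 and to 4 without KO replicate 1, with medians of 0.46 and 0.69, and with the GC offsets in edgeR it was 6 with a median of 0.54. The list's summed level was 617.3 to 917.4 CPM in WT and 941.6 to 1149 CPM in KO. Abundant genes weigh most in this sum. *Gata4*, which is also in the stomach, ventral foregut and pancreatic lists, averaged 214.6 CPM in WT and 332.5 CPM in KO. *Isl1* averaged 163.6 and 154.9 CPM, and *Foxa2* 130.4 and 132.2 CPM.

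Of 18 tested stomach and duodenum genes, 6 were higher and 2 lower at that p, and the median was -0.02. The hedgehog ligand *Ihh* of gut epithelium averaged 36.2 ± 6.37 and 96.8 ± 5.08 CPM (SD, n = 3 each, adjusted p = 0.0904, edgeR). *Onecut2* and *Onecut3*, factors of liver, pancreas and duodenum, were lower, with log2 fold changes of -0.57 and -0.80 (adjusted p = 0.448 and 0.453, edgeR). Of 19 hindgut and intestine genes, 1 was higher (*Klf5*) and 2 lower, the same *Onecut* genes, with a median of -0.08.

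Of 20 genes of the ventral foregut, biliary tract and liver bud, 5 were higher and 2 lower, with a median of 0.08. *Gata4* was at 214.6 ± 38.6 and 332.5 ± 9.93 CPM, *Krt19* of ducts at 80.3 ± 11.7 and 116.9 ± 14.8 CPM, and *Id2* at 430.4 ± 44.3 and 350.5 ± 33.6 CPM (SD, n = 3 each). Of 20 pancreatic progenitor genes, 5 were higher and 0 lower, with a median of -0.01, and *Nkx6-2* was at 128.1 ± 14.0 and 197.6 ± 26.2 CPM. *Pdx1* itself averaged 96.2 ± 8.58 and 87.6 ± 17.8 CPM (log2 fold change -0.14, adjusted p = 0.859, edgeR). Leaving out 1 library moved the counts of lower genes. No gene of the hindgut list was lower without WT replicate 1, WT replicate 3 or KO replicate 1, which also held for the stomach and duodenum list, and 5 pancreatic progenitor genes were lower without KO replicate 2. The library codes in the labels begin with H8 for WT replicates 1 and 2 and KO replicate 1 and with H9 for the other libraries. The codes of WT replicate 2 and KO replicate 1 differ only in their last letter. What the codes mark is not stated. With the first digit as a covariate, 0 genes of the hindgut list and 0 of the stomach and duodenum list were lower, and the hindgut median was 0.04, while *Sox2*, *Klf5* and *Krt15* had log2 fold changes of 2.02, 1.01 and 1.65. A difference between lists was not tested.

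**Figure D5:**
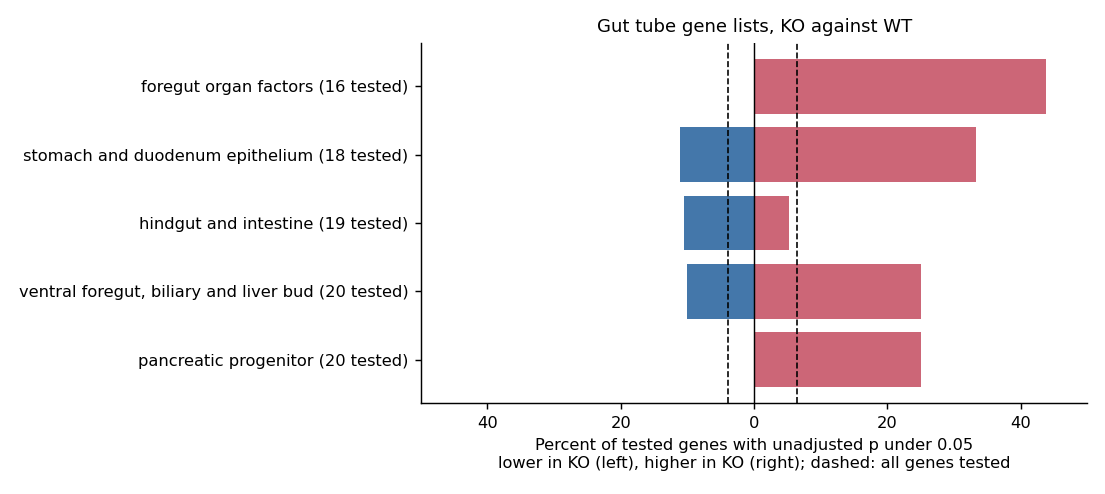
Share of tested genes of 5 gut tube lists (y axis) with an unadjusted p under 0.05 (x axis, percent), higher in KO to the right and lower to the left, with dashed lines at the shares over all tested genes (6.42% and 3.97%). The foregut list is at 43.8% higher, the stomach and duodenum list at 33.3%, the ventral foregut and pancreatic progenitor lists at 25% each, and the hindgut list at 5.26%. The lists share members.

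Markers of other cell types were counted in the same way. Of the tested genes, 2 were higher and 1 lower of 16 epithelial genes (*Krt18* and *Krt19* higher, *Esrp1* lower), 2 and 0 of 8 squamous and ectoderm genes (*Krt15* and *Wnt6*), 1 and 0 of 12 endothelial genes (*Ramp2*), 0 and 1 of 7 neural genes (*Dcx*), and 0 of 11 blood, 4 neural crest, 13 mesenchyme and 12 liver genes. The summed blood level ran from 5.51 to 16079 CPM in WT and from 5.98 to 6425 CPM in KO. With the 2 libraries of highest globin left out, *Sox2* had a log2 fold change of 2.34, *Klf5* of 0.97 and *Krt15* of 3.23.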

How the data were processed

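Polyadenylated RNA of sorted cells was amplified with SMART-seq v4, and Nextera XT libraries were sequenced in pairs. After removal of low-quality sequences by the authors, STAR mapped the pairs to GRCm39, GenomicAlignments gave the reads per gene, and raw counts were deposited with no normalization. Versions, the annotation and the use of strand are not given in the sources used here. The 6 libraries were grouped by the genotype in the labels, and the replicate numbers were not taken as pairs.

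Counts were fitted for KO against WT with edgeR 4.0.16 in R 4.3.3 (filterByExpr, TMM, quasi-likelihood test, Benjamini-Hochberg adjustment over all tested genes). DESeq2 1.42.0 and limma 3.58.1 (voom) were alternatives. Intervals and floors cover counting error only where stated. The 10 genes and the lists, of which at most 3 genes a direction with the smallest p-values under 0.05 plus defining markers are named, were chosen with earlier results of these data known. *Barx1*, *Foxf1*, *Foxe1*, *Pax8*, *Cdx4*, *Evx1*, *Ttr*, *Serpina1b*, *Flt1*, *Tek*, *Egfl7*, *Map2*, *Tubb3*, *Nes*, *Isl1* and *Foxa2* were named after their values were seen. Symbols were found for 94% of identifiers. Exon lengths, 3′UTRs and the GC share of the richest 200 bases came from GENCODE M21 (GRCm38), and promoters and microRNAs from RefSeq, so no GRCm39 coordinates are given. The fits were run on simulated counts with the same spread setting for every gene, which checks the code and not how well the fits suit these libraries. The alternatives tried were other size factors, no filter, a newer spread estimate, a replicate block, the library code, GC offsets and each library left out, and leaving out both high-globin libraries was added after seeing the data.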

Additional observations from a re-analysis of the deposited data

How the results depend on the processing

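*Klf5*, *Sox2*, *Krt15*, *Cdx2*, *Hhex* and *Prox1* kept their direction in all 17 alternatives, *Sox17* in 12 and *Tbx3* in 8. By edgeR 0 genes and 0 of the 10 passed, and the count moved with DESeq2 (3 of the 10, 699 genes in all), with GC offsets in DESeq2 (3 and 525) and without a filter on low counts (1 and 264). Leaving out 1 library at a time, 0 to 1 of the 10 and 0 to 217 genes passed, the higher values without WT replicate 2, and the median log2 fold change of the tested genes ran from -0.35 to 0.64 (0.64 without KO replicate 2 and 0.57 without WT replicate 2). That median was -0.40 with limma-voom, where *Sox17* turned to -1.36. *Sox17* also turned with the replicate block (-0.24) and with both high-globin libraries left out (-0.32), and ran from -0.63 to 0.79 with 1 library left out. *Tbx3* was near 0 and turned to 0.014 with DESeq2, 0.011 with RLE size factors, 0.0078 without a filter, 0.021 with the library code, 0.019 and 0.016 with GC offsets in edgeR and DESeq2, and ran from -0.82 to 0.53 with 1 library left out. The causes were not tested. With the replicate number as a block, 0 genes passed and the median was -0.24. Libraries of the same number had correlations of -0.211, 0.251 and 0.078 between their deviations, so the numbers were not taken as pairs. Low counts limit *Cdx1*, *Nkx2-1*, *Sox2* and *Krt15*.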
